A study of Mus musculus with 12 samples.

Results

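Transcript levels of 10 heat shock chaperone genes of the cytosol and the mitochondria were followed in 12 mouse livers. The genes were chosen by symbol (Hspa1a, Hspa1b, Hspa8, Hsph1, Dnajb1, Hsp90aa1, Hsp90ab1, Hspb1, Hspd1 and Hspe1) from the 56107 genes of the deposited table, each symbol matched 1 row, and all 10 are annotated as protein coding. The series asks how LIX1L acts in fatty liver disease with inflammation, and compares 4 groups of 3 animals: wild-type littermates on a low-fat diet (WT LFD, animals 4, 7 and 8) or a high-fat diet (WT HFD, animals 1, 2 and 6), and Lix1l knockouts on the low-fat diet (KO LFD, animals 2, 4 and 5) or the high-fat diet (KO HFD, animals 1, 5 and 6). The diets lasted 12 weeks, from 6 weeks of age. The sources used here do not give strain, sex, the deleted part of Lix1l, the tissues in which it is deleted or the hour of collection. Values per animal are listed below in the order of these numbers.

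Heat shock proteins bind unfolded or newly made proteins and keep them from clumping. HSP70 proteins work in cycles of ATP binding with J-domain partners and nucleotide exchange factors, HSP90 proteins finish the folding of kinases and receptors, small heat shock proteins hold unfolded clients, and the chaperonin of HSP60 and HSP10 folds proteins imported into mitochondria. When unfolded protein builds up, heat shock factor 1 (HSF1) binds heat shock elements, arrays of inverted GAA units in the promoters of its targets, and raises their transcription. In liver the inducible genes are known to respond to fever, to toxic and oxygen stress and to the daily swing of body temperature, while Hspa8 and Hsp90ab1 are made at high levels in unstressed cells.

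Promoter stretches of 5 members, with Hspe1 and Hspd1 sharing one, are shown because they hold the letters of a heat shock element. A short word of inverted units (GAANNTTC or TTCNNGAA) and a long word with 1 unit more (GAANNTTCNNGAA or TTCNNGAANNTTC, which always contains short words) were searched on both strands of RefSeq windows that run from 250 bases before to 50 bases after a gene's start (build GRCm38.p6). Windows were at hand for 7 members, 10 windows in all. Of the 10 windows 7 held the short word, against 15.1% of 32851 windows of the same length, and 4 (of Hsph1, Hspd1 and Hspe1) held the long word, against 0.603%. Some of these windows overlap, and 1 of those of Hspd1 held neither word. No match was found in the windows of Dnajb1. Sequences are written 5′ to 3′ on the gene's strand with the short words in capitals.
Hspa1a (chr17:34972157-34972276, - strand, the 120 bases before the start): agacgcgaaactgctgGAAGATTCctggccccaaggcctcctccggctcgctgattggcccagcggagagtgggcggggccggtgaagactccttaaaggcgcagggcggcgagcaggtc
Hspa1b (chr17:34959239-34959358, - strand, the 120 bases before the start): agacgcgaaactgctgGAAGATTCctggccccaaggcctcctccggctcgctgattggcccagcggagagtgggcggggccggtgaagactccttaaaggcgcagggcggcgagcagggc
Hspb1 (chr5:135887789-135887918, + strand, the 130 bases before the start): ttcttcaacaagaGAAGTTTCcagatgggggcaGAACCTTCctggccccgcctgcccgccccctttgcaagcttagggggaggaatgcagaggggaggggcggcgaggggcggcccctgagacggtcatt
Hspe1 and Hspd1, shared (chr1:55088053-55088082, + strand, 30 bases between the divergent starts): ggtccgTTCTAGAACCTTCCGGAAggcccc
The Hspa1a and Hspa1b windows were identical at 296 of 300 bases, and of the 4 differences (C44T, T47C, T249G and C276T, Hspa1a first, counted from 1 at the window's 5′ end) only T249G lies in the stretches shown. Hspe1 and Hspd1 are neighbours read in opposite directions. The starts of their first annotated transcripts lie 107 bases apart, and the 18 capital letters between them hold 3 overlapping short words and 2 overlapping long words.

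Levels are given as TPM, the authors' length-normalised transcript abundance, which are scaled to transcript length and to the same total in every library, so read depth is unknown. The 10 genes together took 0.112% to 0.276% of all TPM. All 10 reached 1 TPM in at least 3 libraries and were tested among 11980 such genes. Hspa1a passed with 5 libraries, 4 of them wild type. Lix1l itself was at 0.72, 0.58 and 1.08 TPM in WT LFD, 1.18, 1.73 and 0.90 TPM in WT HFD livers, 0.27, 0.21 and 0.78 TPM in KO LFD, and 1.92, 0.15 and 1.38 TPM in KO HFD animals. The KO HFD values span those of WT HFD, and KO LFD animal 5 lay above WT LFD animals 4 and 7. Lix1l therefore does not check the genotype on either diet, and the animals are called labelled knockouts. Hepatocyte markers were present in every library, led by Alb at 17654 TPM or more. Their summed level was lower in labelled knockouts (42615 to 60223 TPM) than in WT livers (67920 to 92671 TPM). Its largest part, Alb, was at 17654 to 24810 TPM against 30047 to 51216 TPM. On LFD mean Ttr, Ass1 and Serpina1c were higher in labelled knockouts (5875, 1903 and 7824 TPM, against 4852, 1647 and 5916 TPM), and the other hepatocyte markers were lower. The sums of 10 endothelial markers were 71.7 to 93.8 TPM in labelled knockouts against 21.5 to 50.8 TPM in WT livers. Those of 10 Kupffer cell and macrophage markers were 63.7 to 436 TPM against 23.8 to 105 TPM. None of these markers was at 0 in every library. On HFD 7 of 10 hepatocyte markers fell in labelled knockouts, and 10 of 10 endothelial and 6 of 10 Kupffer cell markers rose (adjusted p below 0.05, limma). In whole liver, fewer cells of a type and less RNA per cell cannot be told apart, and the part of cell makeup in the results below was not tested.

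Within a group the same animals tended to hold the highest or the lowest level of most chaperones. WT LFD animal 4 had the highest level of its group for 10 of 10 members and animal 7 the lowest for 10 of 10, whereas these libraries were highest and lowest for 50.6% and 34.0% of all genes tested. On HFD, WT animal 6 was highest for 10 of 10 members (32.2% of all genes) and animal 2 lowest for 9 of 10 (53.6%). Among KO HFD livers animal 6 was highest for 9 members (49.5% of all genes) and animal 1 lowest for 8, but animal 1 was lowest for 78.9% of all genes as well. Among KO LFD livers animal 4 was lowest for 7 members (46.6% of all genes), and none was highest for more than 5. The spread within groups of Hspa1b, Hspa1a and Hsph1 on the log2 scale ranked at percentiles 98.3, 97 and 95.5 of all genes tested, and that of Hspa8 and Hspe1 at 56.2 and 52.3. Hspa5, the HSP70 of the endoplasmic reticulum, was likewise highest in WT LFD animal 4 (253 TPM, against 125 and 162) and WT HFD animal 6 (493 TPM, against 228 and 197).

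**Figure D1:**
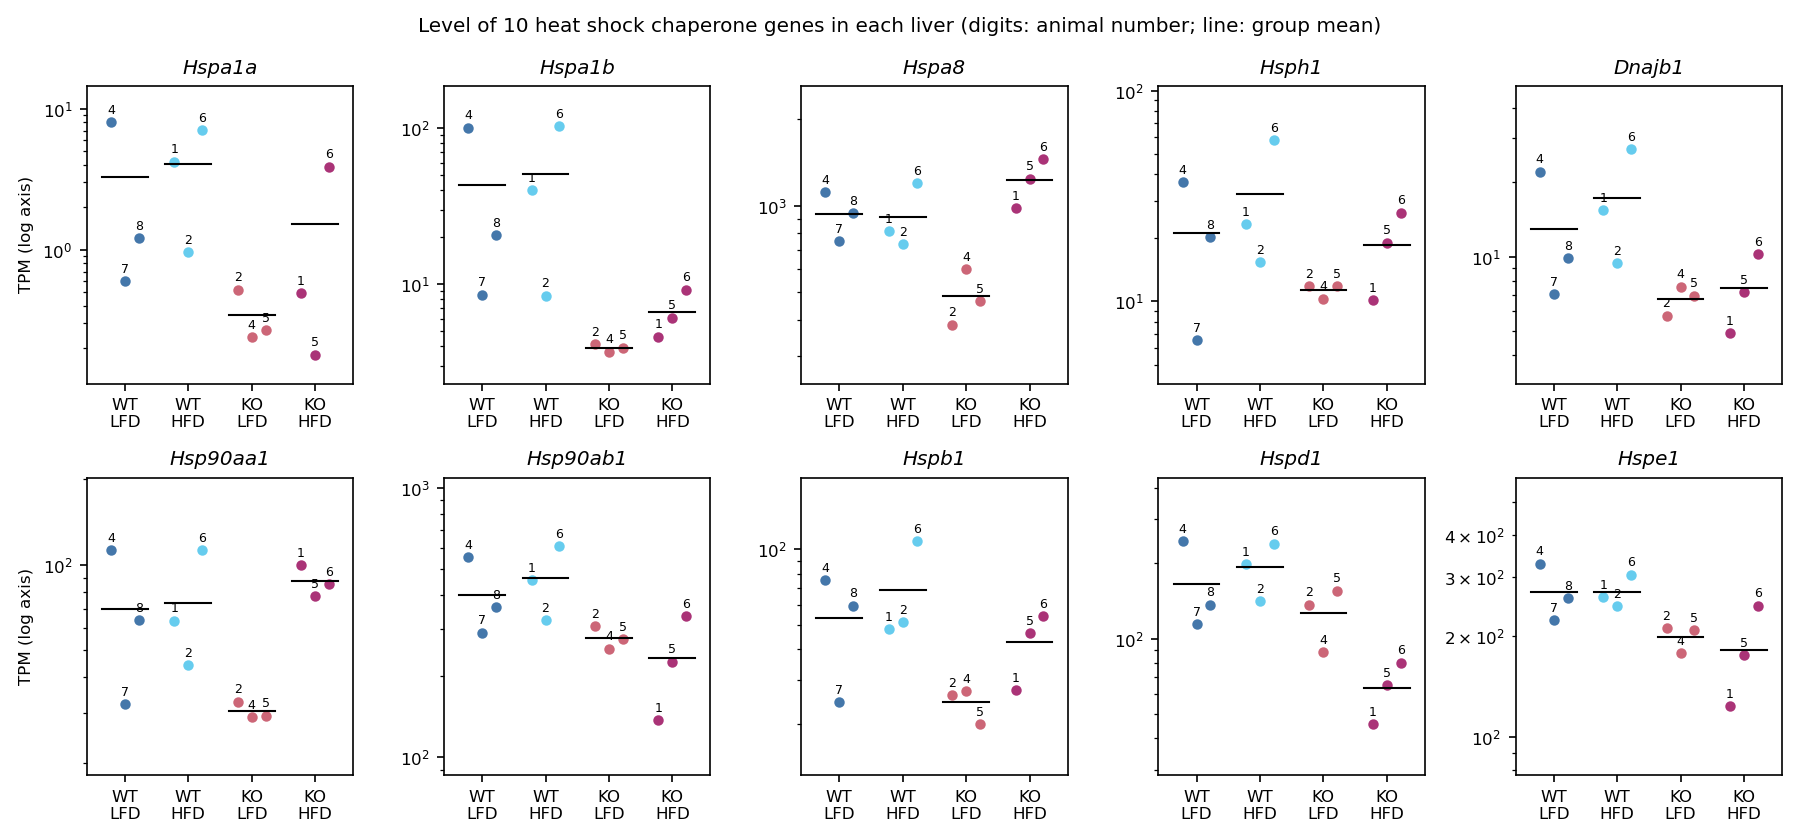
Level in TPM (log axis, a scale per panel) of each of the 10 chaperone genes in each of the 12 livers; digits are animal numbers and lines are group means. WT animals 4 (LFD) and 6 (HFD) top their groups in every panel, the 3 KO LFD points lie close together for Hspa1b (3.70 to 4.12 TPM), and the 3 KO HFD points of Hspd1 (45.7 to 80.2 TPM) lie under all others.

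Of the stress-inducible HSP70 genes, Hspa1b was lower in labelled knockouts when averaged over the diets, and the levels of both genes ranged widely in WT livers. Hspa1a and Hspa1b, neighbouring genes on the - strand of chromosome 17 (34969190 to 34972156 and 34956436 to 34959238, GRCm38), encode almost the same protein, the HSP70 that cells make under stress. Hspa1b was at 101, 8.58 and 20.7 TPM in WT LFD, 40.2, 8.44 and 104 TPM in WT HFD livers, 4.12, 3.70 and 3.92 TPM in KO LFD, and 4.61, 6.11 and 9.22 TPM in KO HFD livers. On LFD the 3 labelled knockouts lay under all 3 WT livers, and on HFD KO animal 6 reached the level of WT animal 2. The mean was 43.4 ± 50.2 TPM (SD, n = 3) in WT LFD and 3.91 ± 0.210 TPM in KO LFD livers, a ratio of 11.1 that falls to 3.74 without WT LFD animal 4. On HFD it was 50.7 ± 48.4 TPM in WT and 6.65 ± 2.35 TPM in labelled knockout livers, a ratio of 7.63 that falls to 3.66 without WT HFD animal 6. Within a diet the difference was not called (limma on log2(TPM + 1), ± SE; log2 change -2.49 ± 0.86, adjusted p = 0.250 on LFD and -2.21 ± 0.86, adjusted p = 0.0609 on HFD). Averaged over the diets, Hspa1b was lower in labelled knockouts (log2 change -2.35 ± 0.61, adjusted p = 0.0203). That call was lost without KO LFD animals 2 and 4 (adjusted p = 0.0905), and the HFD difference passed without WT LFD animal 4 or 7 or WT HFD animal 2 (adjusted p = 0.0288, 0.0429 and 0.0135). The WT LFD animals are not in the HFD contrast. Without either of them its log2 change stayed at -2.21, and only the shared estimate of spread and the adjustment moved.

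Hspa1a was at 8.05, 0.60 and 1.21 TPM in WT LFD, 4.21, 0.96 and 7.05 TPM in WT HFD livers, 0.52, 0.24 and 0.27 TPM in KO LFD, and 0.49, 0.18 and 3.88 TPM in KO HFD livers. KO HFD animal 6 lay above 3 of the 6 WT livers, and the other labelled knockouts lay below all 6. That library was also the highest of the 12 for 11 of 17 immediate early genes, among them Atf3 (57.2 TPM against at most 1.94 elsewhere) and Jun (131 TPM against at most 34.4). The other 6, such as Gadd45g (53.7 TPM against up to 165) and Myc (1.36 TPM against up to 13.1), were higher in another library. The part of these genes in the Hspa1a level was not tested. The differences between genotypes did not pass the test (log2 change -1.25, adjusted p = 0.507 on LFD and -1.09, adjusted p = 0.234 on HFD, limma), although averaged over the diets the change of -1.17 passed without KO HFD animal 6 (adjusted p = 0.0432, from 0.108). Of the 31-base words of Hspa1a transcripts 63.8% occur in Hspa1b, and of those of Hspa1b 67.6% occur in Hspa1a, so how reads were divided between the pair is uncertain.

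Hspa8, the constitutive HSP70 of the cytosol (chromosome 9, 40800984 to 40810087, + strand), was the most abundant member. It was also the only one called for the interaction of genotype and diet. The interaction terms of Hsp90aa1 (1.34, adjusted p = 0.130, limma) and Hspd1 (-1.25, adjusted p = 0.0962) did not pass, so the call does not set Hspa8 apart from them in size. It was at 1113, 752 and 942 TPM in WT LFD, 816, 734 and 1194 TPM in WT HFD livers, 386, 600.1 and 464 TPM in KO LFD, and 982, 1240.3 and 1446 TPM in KO HFD livers. Those of the KO LFD group lay under every other liver, and the other groups overlapped. In labelled knockouts Hspa8 rose on HFD from a mean of 483 ± 108 to 1223 ± 232 TPM (SD, n = 3 per group; log2 change 1.34 ± 0.26, adjusted p = 0.00659, limma), while WT means were 936 ± 180 TPM on LFD and 914 ± 245 TPM on HFD. The interaction of genotype and diet was 1.39 ± 0.36 on the log2 scale (adjusted p = 0.0397, limma). Leaving out any single library but KO LFD animal 4 or KO HFD animal 1 ended the interaction's call, with adjusted p between 0.0515 and 0.109. Labelled knockouts were below WT livers on LFD (log2 change -0.96 ± 0.26) and above them on HFD (0.43 ± 0.26), and neither difference passed (adjusted p = 0.155 and 0.201), although the HFD value passed after median-ratio scaling (0.78, adjusted p = 0.0249). Of the 31-base words of Hspa8 transcripts 44.8% occur in other genes. Gm15459, listed at 0.50 TPM or less, holds 38.6% of them, and Gm26825, for which no level was at hand, holds 38.2%.

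Neither of the HSP70 partners among the members was called between genotypes on either diet. Dnajb1, the main J-domain partner of inducible HSP70 (chromosome 8, 83608193 to 83612653, + strand), was at 22.02, 7.03 and 9.88 TPM in WT LFD, 15.4, 9.39 and 27.2 TPM in WT HFD livers, 5.77, 7.55 and 6.95 TPM in KO LFD, and 4.91, 7.16 and 10.2 TPM in KO HFD livers. Its level in KO HFD livers reached into the WT HFD range only through animal 6. The log2 change on HFD was -1.05 ± 0.42 (adjusted p = 0.0666, limma), which passed without WT LFD animal 4 or WT HFD animal 2 (adjusted p = 0.0365 and 0.0300), and -0.71 on LFD (adjusted p = 0.527). Without WT LFD animal 4, which is not in the HFD contrast, the change stayed at -1.05. Hsph1, a large HSP70 relative that acts as its nucleotide exchange factor (chromosome 5, 149614287 to 149636376, - strand), ran from 6.53 TPM in WT LFD animal 7 to 58.4 TPM in WT HFD animal 6 and from 10.1 to 26.3 TPM in labelled knockouts. The genotype groups of Hsph1 overlapped on both diets and did not differ beyond their spread (log2 change -0.56 on LFD and -0.65 on HFD, adjusted p = 0.753 and 0.388).

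The HSP90 genes were called in different contrasts, Hsp90ab1 between genotypes and Hsp90aa1 between diets in labelled knockouts, and no contrast called both. Hsp90ab1, the constitutive cytosolic HSP90 (chromosome 17, 45567775 to 45573271, - strand), was at 554, 290.0 and 362 TPM in WT LFD, 456, 323 and 608 TPM in WT HFD livers, 307, 253 and 274 TPM in KO LFD, and 137, 226 and 335 TPM in KO HFD livers. Its KO HFD mean of 233 ± 98.8 TPM was lower than the WT HFD mean of 462 ± 143 TPM (SD, n = 3; log2 change -1.03 ± 0.34, adjusted p = 0.0352, limma), although KO HFD animal 6 lay just above WT HFD animal 2. The call was lost without WT HFD animal 1 or 6 or KO HFD animal 1 or 5 (adjusted p = 0.0932, 0.134, 0.126 and 0.0695) and after median-ratio scaling (log2 change -0.68, adjusted p = 0.0604). Averaged over the diets Hsp90ab1 was lower as well (log2 change -0.76 ± 0.24, adjusted p = 0.0455), a call that every single left-out library ended except WT LFD animal 7, WT HFD animal 2 and KO HFD animal 6, with adjusted p of up to 0.110. Its change between diets in labelled knockouts did not pass (log2 change -0.34 ± 0.34, adjusted p = 0.480, limma).

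Hsp90aa1, the stress-inducible HSP90 (chromosome 12, 110690605 to 110702728, - strand), was at 113, 32.2 and 63.7 TPM in WT LFD, 63.4, 44.1 and 113 TPM in WT HFD livers, 32.8, 29.0 and 29.3 TPM in KO LFD, and 99.5, 77.4 and 85.4 TPM in KO HFD livers. All 3 on HFD lay above the labelled knockouts on LFD and inside the WT range. Hsp90aa1 rose on HFD in labelled knockouts, from 30.4 ± 2.15 to 87.4 ± 11.2 TPM (SD, n = 3; log2 change 1.49 ± 0.41, adjusted p = 0.0234, limma). That call was lost without KO LFD animal 5 (adjusted p = 0.0626) or KO HFD animal 1 (adjusted p = 0.0755). The interaction with diet did not pass (1.34 ± 0.57, adjusted p = 0.130), nor did the genotype differences on LFD (adjusted p = 0.335) and on HFD (0.35, adjusted p = 0.519). The transcripts of Hsp90aa1 share 46.7% of their words with the copy Gm12346, which held 10.8 and 17.4 TPM in KO HFD animals 1 and 5 and at most 0.78 TPM in the other libraries, so these levels are uncertain.

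Of the members, the mitochondrial chaperonin gene Hspd1 had the lowest adjusted p between genotypes on HFD. Hspd1 encodes HSP60, the barrel of the chaperonin (chromosome 1, 55077835 to 55088243, - strand), and Hspe1 encodes HSP10, its lid (55088132 to 55091307, + strand). Hspd1 was at 244, 114 and 136 TPM in WT LFD, 198, 141 and 239 TPM in WT HFD livers, 136, 88.5 and 155 TPM in KO LFD, and 45.7, 65.0 and 80.2 TPM in KO HFD livers. All 3 KO HFD livers lay under the other 9. Hspd1 was lower in labelled knockouts on HFD, at 63.6 ± 17.3 TPM against 193 ± 49.5 TPM in WT livers (SD, n = 3; ratio of means 3.03, log2 change -1.59 ± 0.33, adjusted p = 0.00534, limma), and the call held under all 24 alternatives run, with adjusted p from 3.01e-05 to 0.0267. On LFD the means were 127 ± 34.5 and 165 ± 69.5 TPM and the groups overlapped (log2 change -0.34 ± 0.33, adjusted p = 0.748). In order of level KO HFD stood lowest, then KO LFD, WT LFD and WT HFD, and neighbours among the upper 3 groups overlapped. The change with diet in labelled knockouts (-0.98 ± 0.33, adjusted p = 0.0523) and the interaction (-1.25 ± 0.47, adjusted p = 0.0962) did not pass. The former passed without WT LFD animal 4, KO LFD animal 4 or KO HFD animal 6 (adjusted p = 0.0344, 0.0312 and 0.0414), and the latter without WT LFD animal 4 (adjusted p = 0.0417). WT LFD animal 4 is not in the former contrast, whose change stayed at -0.98 without it. Averaged over the diets Hspd1 was lower in labelled knockouts (-0.96 ± 0.24, adjusted p = 0.0168), though not without KO LFD animals 2 and 4 (adjusted p = 0.101).

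Hspe1 was at 328, 222 and 258 TPM in WT LFD, 261, 245 and 304 TPM in WT HFD livers, 211, 178 and 209 TPM in KO LFD, and 124, 176 and 246 TPM in KO HFD livers. Labelled knockouts lay under WT livers on LFD, and on HFD they reached into the WT range through animal 6. The log2 change was -0.42 ± 0.25 on LFD (adjusted p = 0.527) and -0.62 ± 0.25 on HFD (adjusted p = 0.0676, limma), and the HFD value passed without KO HFD animal 6 (adjusted p = 0.0170). Between 30.5% (Hspe1) and 50.1% (Hspd1) of the pair's words occur in other genes, mostly copies listed at 2.38 TPM or less, and 5.68% of the words of Hspe1 occur in Hspd1, whose longer transcripts overlap its first exon. The sources used here do not say whether counting used strand, so reads from that overlap cannot be told apart.

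The small heat shock protein Hspb1 (chromosome 5, 135887919 to 135889563, + strand), which binds unfolded proteins and actin, was at 75.3, 24.5 and 59.6 TPM in WT LFD, 47.9, 51.1 and 108 TPM in WT HFD livers, 26.2, 27.2 and 20.1 TPM in KO LFD, and 27.4, 46.2 and 54.2 TPM in KO HFD livers. The genotype groups overlapped on both diets, on LFD only through WT animal 7. Hspb1 was not called on either diet (log2 change -0.96 ± 0.42, unadjusted p = 0.0436, adjusted p = 0.370 on LFD and -0.64 ± 0.42, adjusted p = 0.251 on HFD, limma). Averaged over the diets the change of Hspb1 did not pass (-0.80 ± 0.30, adjusted p = 0.0752, limma). Of its words 55.4% occur in other genes, mostly in a copy (Hsp25-ps1) listed at 0.79 TPM or less.

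Counted over the 10 members, the contrast of genotypes on HFD called 2 genes lower and none higher, against 37.0% of all genes tested (25.8% lower, 11.2% higher), so the share of members called was below the background. At an unadjusted p below 0.05 there were 5 of 10 members, against 48.4%, and the libraries of the genotypes did not overlap, with labelled knockouts lower, for Hspd1 alone, against 37.3%. The median log2 change of the members was -0.84, and that of all genes tested -0.25. Scaling moved the latter to 0.01 (median-ratio) and -0.08 (quantile), and the calls from 1347 higher and 3088 lower to 2430 and 2217 with median-ratio scaling, under which the members' median was -0.50, 8 of 10 members kept a negative change, and the members called were Hspa8, higher, and Hspd1, lower. Without WT HFD animal 1 or 6 or KO HFD animal 1 the lower calls over all genes numbered 1499, 1787 and 1912, and the higher ones 837, 835 and 1437. On LFD no member was called by limma, against 0.159% of all genes, and 4 (Hspa1b, Hspa8, Hsp90aa1 and Hspb1) had an unadjusted p below 0.05, against 12.7%. All 10 had a negative change there, with a median of -0.83 against 0.07 over all genes, and for 4 (Hspa1a, Hspa1b, Hspa8 and Hspe1) the labelled knockouts lay entirely under the WT livers, against 6.35% of all genes. Without WT LFD animal 4, the highest of its group for every member, all 10 changes were smaller. They stayed negative but were -0.015 for Hspd1, -0.040 for Hsph1 and -1.55 for Hspa1b. The genotype contrasts on each diet compare different animals, but their tests share the estimate of spread taken from all 12 libraries and so are not independent. Averaged over the diets 3 members were called, all lower, against 21.5% of all genes in either direction and 12.4% lower, and 7 had an unadjusted p below 0.05, against 37.7%. Without WT LFD animal 4 or WT HFD animal 1 or 6 the lower calls over all genes numbered 809, 715 and 788 instead of 1486.

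**Figure D2:**
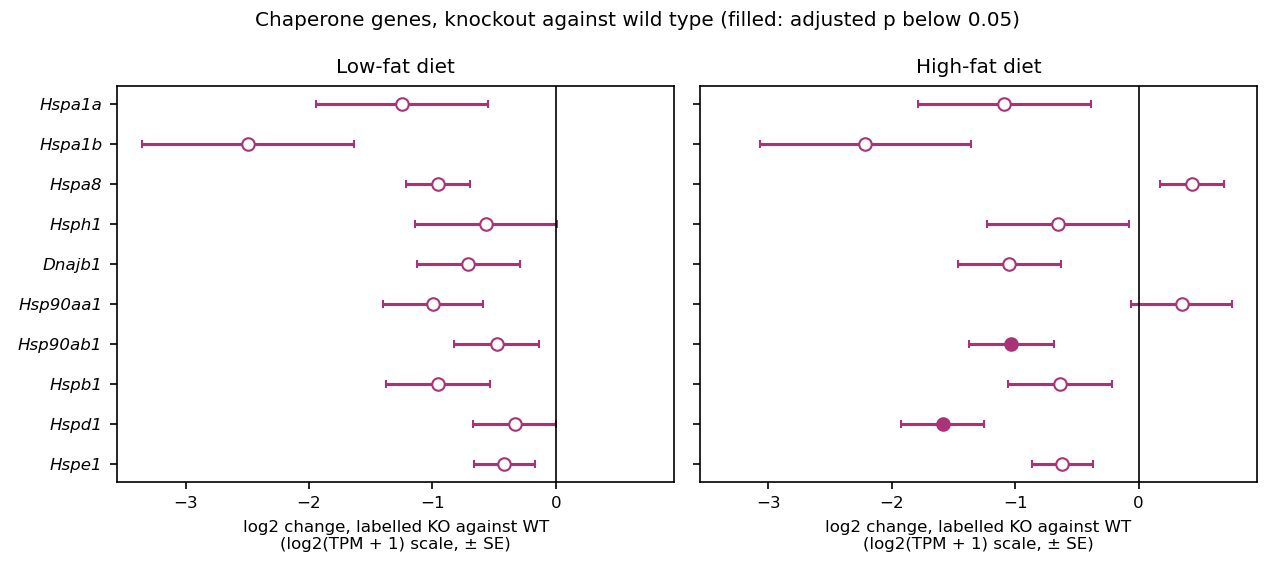
Log2 change of each chaperone gene, labelled knockout against WT, on LFD (left) and HFD (right), with SE bars from the fit of log2(TPM + 1) and filled points where adjusted p is below 0.05. All 10 points lie left of 0 on LFD and 8 on HFD, where Hspd1 (-1.59) and Hsp90ab1 (-1.03) are filled and Hspa8 and Hsp90aa1 lie right of 0.

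Between the diets Hspa8 and Hsp90aa1 were the members called in labelled knockouts, as given above, and in WT livers no member was called or had an unadjusted p below 0.05 (limma), against 0.309% and 12.1% of all genes. Levels in WT LFD and WT HFD livers overlapped for all 10, while they stood apart with HFD higher for 15.2% and lower for 8.81% of all genes. In labelled knockouts 2 members were called higher on HFD, against 6.73% of all genes, and 0 lower, against 17.0% (23.8% in all). At an unadjusted p below 0.05 there were 3, against 39.3%. The 3 HFD livers lay above the 3 LFD livers for Hspa1b, Hspa8, Hsp90aa1 and Hspb1, 4 of 10 members against 10.9% of all genes, and under them for Hspd1, against 27.7%. Calls over all genes split into 806 higher and 2040 lower, and into 1704 and 1570 with median-ratio scaling, where the same 2 members were called. Without KO LFD animal 2 or 5 or KO HFD animal 1 the lower calls numbered 1247, 1056 and 978. For the interaction 1 member was called, with a positive term, against 9.66% of all genes and 2.54% with a positive term; all calls split into 304 positive and 853 negative, and into 862 and 750 with median-ratio scaling. With single libraries left out, the share of all genes called for the interaction ran from 0.234% (without WT HFD animal 1) to 17.0% (without KO LFD animal 4), with 0.367% without WT LFD animal 8 and 0.576% without WT HFD animal 6. Averaged over the genotypes no member was called (6.42% of all genes), and 2 had an unadjusted p below 0.05 (25.3% of all genes), Hspa8 (0.65, adjusted p = 0.0571) and Hsp90aa1 (0.82, adjusted p = 0.106).

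Ratios of 2 members within a library do not depend on how libraries are scaled. In 3 of the 4 ratios computed, the KO HFD livers lay outside the range of the other 9. The level of Hspe1 relative to Hspd1 was 2.71, 2.70 and 3.07 in KO HFD livers and between 1.27 and 2.01 in the other 9. Hsp90aa1 relative to Hsp90ab1 was 0.724, 0.342 and 0.255 in KO HFD livers and at most 0.203 elsewhere, and its groups stood apart although the members' own TPM overlapped between KO HFD and WT HFD livers. Dnajb1 relative to Hspa8 was 0.00500, 0.00577 and 0.00707 in KO HFD livers and at least 0.00934 elsewhere. Each of these 3 ratios gave an exact 2-sided permutation p = 0.1 against WT HFD, the smallest that 3 against 3 allows (adjusted p = 0.2 over 24 tests). How often ratios of other gene pairs stand apart was not computed. For single genes, KO HFD livers lay entirely under WT HFD livers for 37.3% of all genes and above them for 16.1%. Inducible Hspa1b relative to constitutive Hspa8 was 0.00470 to 0.0107 in the 6 labelled knockouts and 0.0114 to 0.0908 in the 6 WT livers, with no overlap. That difference of -2.29 on the log2 scale gave p = 0.00216, the smallest that an exact permutation of 6 against 6 allows, and an adjusted p = 0.0520. On LFD alone the mean log2 ratio of Hspa1b to Hspa8 differed by -1.78, and on HFD by -2.79 (exact p = 0.1 for each).

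**Figure D3:**
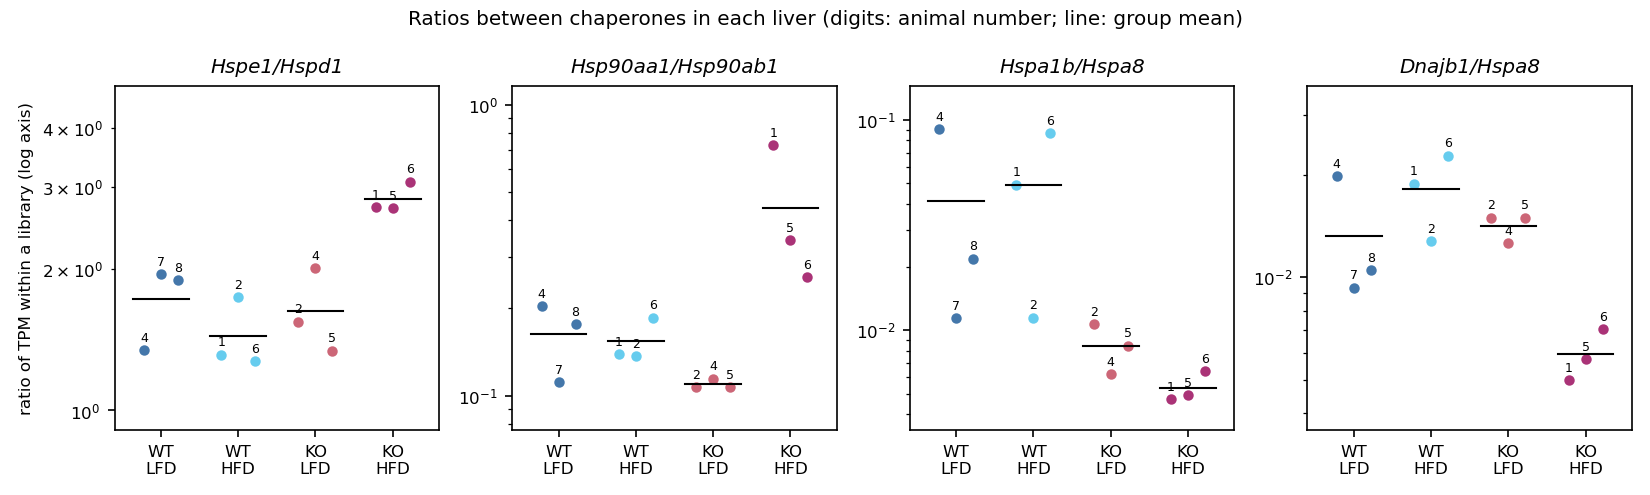
Ratio of TPM between pairs of chaperone genes within each liver (log axis, a scale per panel); digits are animal numbers and lines are group means. The 3 KO HFD livers stand above the rest for Hspe1/Hspd1 and Hsp90aa1/Hsp90ab1 and below them for Dnajb1/Hspa8, and all 6 labelled knockouts stand below all 6 WT livers for Hspa1b/Hspa8.

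Further genes were followed in 10 lists, of which 7 hold other chaperones, their partners and proteases, and the others hold heat shock factors with their regulators, immediate early genes, and clock and cold-inducible genes. Of 125 list genes tested, 12 rose and 29 fell in labelled knockouts on HFD (9.60% and 23.2%, against 11.2% and 25.8% of all genes), and 0 were called by limma on LFD or between diets in WT livers, where 11 and 15 had an unadjusted p below 0.05 (8.80% and 12.0%, against 12.7% and 12.1% of all genes). The mitochondrial chaperones and proteases, which share the organelle with Hspd1 and Hspe1, were mostly lower on HFD: 10 of 14 fell, 1 rose and 3 did not pass, with a median of -1.16. The same 10 genes fell with median-ratio scaling, quantile normalization and scaling without mitochondrially encoded genes. Hspa9, the mitochondrial HSP70, fell from 156 ± 28.6 to 53.0 ± 23.5 TPM (log2 change -1.63 ± 0.30, adjusted p = 0.00317), and its nucleotide exchange factors Grpel1 and Grpel2 by 1.36 and 1.62 on the log2 scale (adjusted p = 0.00258 and 0.00177). Dnaja3, its J-domain partner, fell by 1.18 (adjusted p = 0.00337). Clpp, the protease subunit of the matrix complex ClpXP, was the gene that rose. In KO HFD animal 1 mitochondrially encoded transcripts took 22.6% of TPM, against 10.9% and 12.6% in KO HFD animals 6 and 5 and 7.53% to 11.6% elsewhere, and the part of that share was not tested. The falls of the list and of Hspd1 held when TPM were rescaled without those transcripts.

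Among cytosolic partners the calls went in both directions. Of 13 tested relatives, exchange factors and regulators of HSP70, 5 fell on HFD (Bag4, Bag5, Hspa14, Hspa4 and St13) and Bag6 rose. With median-ratio scaling 3 of these fell (Bag4, Hspa14 and Hspa4) and Stub1 rose as well. Bag4, which releases HSP70 from its clients, fell from 5.81 ± 1.4 to 1.71 ± 0.108 TPM (SD, n = 3; log2 change -1.31 ± 0.19, adjusted p = 0.00143, limma). Of 13 other J-domain genes 4 fell (Dnaja2, Dnajb12, Dnajb4 and Dnajb6) and Dnajb5 rose, and with median-ratio scaling Dnajb4 did not pass and Dnajb14 rose as well. Cdc37, which brings kinases to HSP90, fell from 42.9 ± 10.3 to 7.02 ± 5.17 TPM (log2 change -2.68 ± 0.43, adjusted p = 0.00194), and of 15 HSP90 co-chaperones Sgta was the other to fall. With median-ratio scaling or quantile normalization 3 of the 15 rose (Aarsd1, Ahsa2 and Sugt1) and only Cdc37 fell. In the folding machinery of tubulin and actin, 3 prefoldin subunits rose (Pfdn2, Pfdn5 and Pfdn6). Vbp1, also a prefoldin subunit, fell, as did 4 subunits of the TRiC ring (Cct2, Cct4, Cct5 and Cct6a). With median-ratio scaling or quantile normalization, however, 6 genes of this list rose and 2 fell (Cct5 and Vbp1). No other small heat shock protein passed (0 of 4 tested by limma, none at an unadjusted p below 0.05), and of 5 heat shock factors and regulators of theirs Hsf1 rose, from 6.13 ± 0.673 to 10.02 ± 1.57 TPM (0.62 ± 0.17, adjusted p = 0.0170).

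Of the chaperones of the endoplasmic reticulum most did not pass. On HFD 3 of 15 rose in labelled knockouts (Creld2, Manf and Serpinh1), Canx fell, and the median was 0.68, or 1.03 with 8 rises after median-ratio scaling. Manf, a secreted partner of Hspa5, rose from 137 ± 72.1 to 417 ± 172 TPM (SD, n = 3; log2 change 1.62 ± 0.45, adjusted p = 0.0178, limma). Creld2, a folding factor of the same compartment, rose by 2.16 ± 0.63 (adjusted p = 0.0215), and Canx, the lectin chaperone calnexin, fell by 1.67 (adjusted p = 0.00546). Of 16 immediate early genes Gadd45g rose, and of 16 clock and cold-inducible genes Per2 rose and Hlf and Nr1d1 fell. Between diets in labelled knockouts, 12 of 125 list genes rose on HFD and 24 fell (9.60% and 19.2%, against 6.73% and 17.0% of all genes). Of the 15 endoplasmic reticulum chaperones, Creld2, Hsp90b1, Hspa5, Manf and Pdia3 rose in that contrast and Canx fell. Mean Hspa5 was 157.4 ± 28.09 TPM on LFD and 539.5 ± 298 TPM on HFD (SD, n = 3), and mean Hsp90b1 187.5 ± 50.1 and 465 ± 185.9 TPM.

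**Figure D4:**
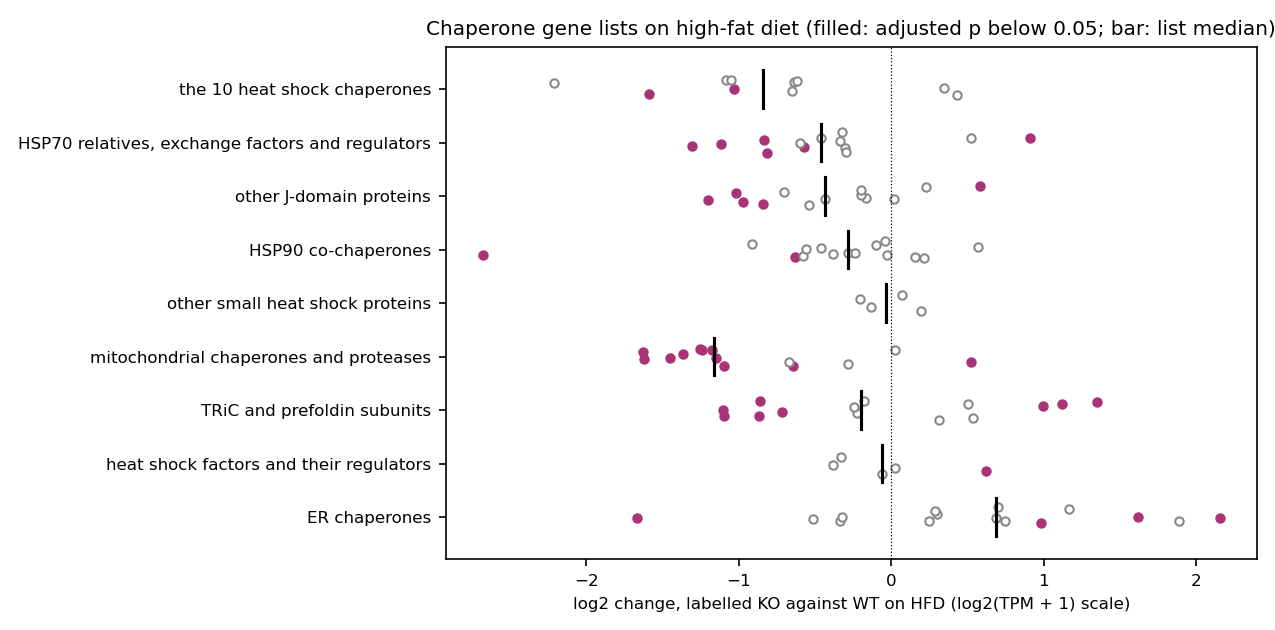
Log2 change on HFD, labelled knockout against WT (log2(TPM + 1) scale), of each tested gene in the lists shown, with filled points where adjusted p is below 0.05 and a bar at the median of each list. The mitochondrial list has 10 filled points left of 0 and a median of -1.16, and the list of the endoplasmic reticulum has its median right of 0, at 0.68.

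Dbp, a clock gene whose level swings over the day, was at 0.93, 4.95 and 64.3 TPM in KO LFD animals 2, 4 and 5 and at 49.1 to 136 TPM in the other 9 livers. The part of the hour of collection in the levels was not tested.

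The 6 genes whose log2(TPM + 1) followed the mean standardised level of the members most closely over the 12 libraries were Rbm27 (Pearson r = 0.976), Nufip2 (0.947), Rsad2 (0.941), Dnaja1 (0.935), Washc4 (0.929) and Fubp1 (0.925). These are descriptions over libraries that share groups and scaling, with no test. Dnaja1, a J-domain partner of Hspa8, ran from 96.8 TPM in KO HFD animal 1 to 301 TPM in WT HFD animal 6, and its genotype difference on HFD did not pass (log2 change -0.71 ± 0.29, adjusted p = 0.0731, limma). Among the members, each itself part of that mean, Dnajb1 (r = 0.971), Hspa1b (0.959), Hspa1a (0.944), Hsph1 (0.932) and Hspb1 (0.926) lay closest to it. Hspa8 (0.590), Hsp90aa1 (0.688) and Hspd1 (0.691) lay farthest from it.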

How the data were processed

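Polyadenylated RNA from frozen livers was sequenced after TruSeq library preparation, per the labels' protocols. Reads were processed with HISAT2 and StringTie on build mm10, per the submitters' processing notes, which name no versions. Expression values came as a single table of TPM for 12 libraries, as deposited by the authors, and no other per-sample column was left over. Columns named with another abbreviation were matched to the knockouts because deposited group means equalled recomputed ones within 3.33e-05 TPM. Symbols were matched for 55141 of 56107 gene identifiers. TPM hold no counts, so no counting interval was computed.

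The fit took the 11980 genes that reached 1 TPM in 3 or more libraries. Their log2(TPM + 1) values entered limma 3.58.1 (R 4.3.3) with a mean for each group and a trended prior, which left 8 residual degrees of freedom. Fold changes on this scale understate the change of low genes. Tests were 2-sided, with Benjamini-Hochberg adjustment over all genes of each of 7 comparisons, and adjusted p below 0.05 was called. The script was tested on simulated data. Ratios were tested by exact permutation over all regroupings of the libraries, with p adjusted in scipy 1.17.1, and figures drawn with matplotlib 3.10.9. P-values measure the spread between the animals of a group. Positions and 31-base words are from GENCODE M21 (GRCm38), and promoters from RefSeq. Named were all members, Lix1l, the 6 genes most like the members, and up to 4 genes with the lowest p per list; genes named in counts of list calls or beside a single library were chosen after their values were seen. The members and lists were chosen with earlier results of these data known.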

Additional observations from a re-analysis of the deposited data

Results flagged for a closer look

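Hspa8 was flagged because its interaction of genotype and diet was called. The log2 change from LFD to HFD in labelled knockouts was larger than that in WT livers by 1.39 ± 0.36 (interaction term, adjusted p = 0.0397, limma). All 3 KO HFD livers (982 to 1446 TPM) lay above all 3 KO LFD livers (386 to 600.1 TPM), whereas WT livers held 752 to 1113 TPM on LFD and 734 to 1194 TPM on HFD. The interaction kept its sign in all 23 alternatives run and its side of the threshold in 10, with adjusted p from 0.00389 to 0.656. Under the other 3 scalings it was called in each.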

How the results depend on the processing

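Of 961 alternatives run on 51 single values, 865 kept direction and side of the threshold, 51 gained a call, 41 lost one and 4 changed sign, and the cause was not tested. The 865 do not measure stability, because part of the outcomes was fixed in advance. Ratios of 3 against 3 libraries have a smallest exact permutation p of 0.1 and cannot be called. Leaving out a library that is not in a contrast of 2 groups cannot move its log2 change. The count of members called between genotypes on HFD (2) became 1 with no filter, 1 with only the groups compared, 7 with array weights, 5 with a replicate block, and 1 to 4 when single libraries were left out. In labelled knockouts between diets (2) it became 3, with Hspd1, under a filter of 5 TPM, array weights or a robust prior, 1 with no filter, 0 with the block, 1 without KO LFD animals 2 and 4 (an alternative chosen after seeing the data, for their low Dbp) and 1 to 3 without single libraries. For the interaction (1) it became 0 with no filter, 2 with array weights, 0 with the block, 0 without KO LFD animals 2 and 4, and 0 to 1 without single libraries. Averaged over the diets (3) it became 1 with no filter, 5 with quantile normalization, 5 without mitochondrially encoded genes, 7 with array weights, 0 without KO LFD animals 2 and 4, and 2 to 6 without single libraries. Averaged over the genotypes (0) it became 1 with median-ratio scaling, quantile normalization, scaling without mitochondrially encoded genes or a robust prior, 2 with array weights, and 0 to 1 without single libraries. On LFD and between diets in WT livers it was 0 in every alternative run. The change of Hsp90aa1 averaged over the genotypes became -0.0687 with the replicate block. Without single libraries the log2 difference on LFD ran from -0.256 to 0.0471 for Hspe1/Hspd1 and from -0.0283 to 0.513 for Dnajb1/Hspa8. Animal numbers shared between groups did not pair the libraries (correlations of deviations from group means -0.26 to 0.10), and the block left 2 residual degrees of freedom. Hspa1a left the test with a filter of 5 TPM. Unknown depth limits the precision of low genes such as Hspa1a.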
